A study of Mus musculus with 12 samples.

Results

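The genes described here are the 81 genes for the proteins of the mouse cytosolic ribosome that were found on the array, 50 of the large subunit (Rpl and Rplp symbols) and 31 of the small subunit (Rps symbols). They were chosen by their symbols, which are Rpl or Rps with a number and an optional letter, or Rplp0, Rplp1 and Rplp2, leaving out 5 pseudogenes and the Rps6k kinases. They stand among 25128 genes and unmatched targets on the array, and 249 probes in 83 targets measured them, 3 probes to a target, with a pair of targets each for Rpl34 and Rps27a. Rpl10l and Rpl32l fit the rule but had no matched target and are not analysed here. RNA came from untreated cultures labelled as 3 mouse cell lines and grown in the same serum-containing medium: AtT20, an anterior pituitary tumor line with neuroendocrine character, BV2, a microglial line kept in resting conditions, and N18, a neuroblastoma line. Each line was grown on 4 plates that were extracted separately, and each plate was put on 1 single-color array, which makes 12 arrays. All plates of a group come from the same established line, so they give the spread between plates and not between animals. Copies of ribosomal protein genes that are nearly identical in sequence (processed pseudogenes) are common in the genome, and since the probe sequences were not used here, signal from such copies cannot be told apart. No genetic change or agent distinguishes the groups beyond the line itself.

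Cytosolic ribosomes are made of a large and a small subunit, each built on ribosomal RNA with many proteins that are each made by a gene of their own. Nearly every cell transcribes these genes strongly, and their messages share a short pyrimidine run at the 5′ end through which growth signals adjust their translation. Some members have paralogues, such as Rpl22l1 for Rpl22, Rps27l for Rps27 and Rpl3l for Rpl3, which can stand in for the partner or are made mostly in a few tissues.

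The arrays labelled AtT20 stood apart from the others. Their interquartile range over all probes was 0.38 to 0.78 on the log2 scale, against 1.28 to 2.21 on the other 8 arrays. Of 8 corticotroph genes fixed for the check, 1 was above background on the AtT20-labelled plates and 5 were above it on the N18 plates, and Pomc, the hormone precursor gene of corticotrophs, was at 0.29 over the controls on the AtT20-labelled plates, below their threshold of 0.37. In BV2, 6 of 7 microglial genes were above background, against 0 on the AtT20-labelled plates and 2 in N18, and in N18 7 of 8 neuroblastoma genes were, against 4 in each of the others. The neuroblastoma gene not above it in N18 was Nefl, at −0.09 over the controls there and 4.46 on the AtT20-labelled plates. Of all features, 35.0% were above background on the AtT20-labelled plates, 53.3% in BV2 and 55.4% in N18. The comparison of N18 with BV2 is therefore given first, and every value against AtT20 concerns the plates that carry that label. Whether the RNA on them is that of AtT20 cells was not tested, so a difference from these plates is not necessarily a difference from that line. Which plates shared a slide is not known here, so slide and line cannot be told apart. In RNA from whole cultures, fewer cells and less RNA per cell cannot be told apart either.

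Most of these genes were far above background in BV2 and N18. A level over the controls is the log2 of the mean probe intensity of a gene on a plate minus the mean of 10 seminal protein genes, which the study used as negative controls, and a gene was above background when its mean over 4 plates exceeded 2 SD of those controls. That threshold was 0.37 on the AtT20-labelled plates, 0.56 in BV2 and 0.74 in N18. In BV2 74 of the 81 members passed (91.4%), where 53.3% of all features did, and in N18 74 passed (91.4%), where 55.4% of all features did. On the AtT20-labelled plates 65 passed (80.2%), where 35.0% of all features did. The median level of the members was 4.78 over the controls in BV2, 4.98 in N18 and 2.73 on the AtT20-labelled plates, and the medians of all features in the same order were 0.64, 0.93 and 0.16. The controls themselves were brighter on the AtT20-labelled plates, which leaves less room over them below the highest possible intensity of 16. For example, probe 425 of Rpl11 at 15.98 there was 5.03 over the controls, and at 15.45 in BV2 it was 5.85 over them. All 74 members that passed in BV2 were above the plate's own threshold on each of the 4 plates, as were 73 of the 74 in N18 and 60 of the 65 in the AtT20-labelled plates.

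In all 3 lines 61 members passed, and 20 were below the threshold in at least 1 line. The members below it everywhere were Rplp0, which makes the base of the ribosomal stalk, Rpl21, Rpl37 and Rpl39l. Rplp0 was at −0.20 on the AtT20-labelled plates, 0.41 in BV2 and 0.18 in N18, and Rpl39l, a paralogue of Rpl39 made mainly in testis, was at −0.16, −0.51 and −0.39. Rpl37 came closest in N18, at 0.74 ± 0.16 (SD, n = 4), which is the threshold itself to 2 decimals. Rplp0 and Rpl37 are made by dividing cells in general, and no other probe measured them here. Rpl29 (0.47) and Rps19 (0.55), the latter mutated in many patients with Diamond-Blackfan anemia, passed on the AtT20-labelled plates and were between −0.14 and −0.02 in BV2 and N18. Rpl17 was above the threshold on the AtT20-labelled plates (0.41) and in BV2 (1.43), and at 0.71 in N18. Rps15a passed on the AtT20-labelled plates (1.28) and in N18 (0.78), and was at 0.34 in BV2. The other 12 passed in BV2 and N18 and not on the AtT20-labelled plates, where they were between −0.18 and 0.33: Rpl14, Rpl22, Rpl22l1, Rpl23, Rpl26, Rpl27a, Rpl35, Rpl7l1, Rps24, Rps25, Rps26 and Rps29.

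**Figure D1:**
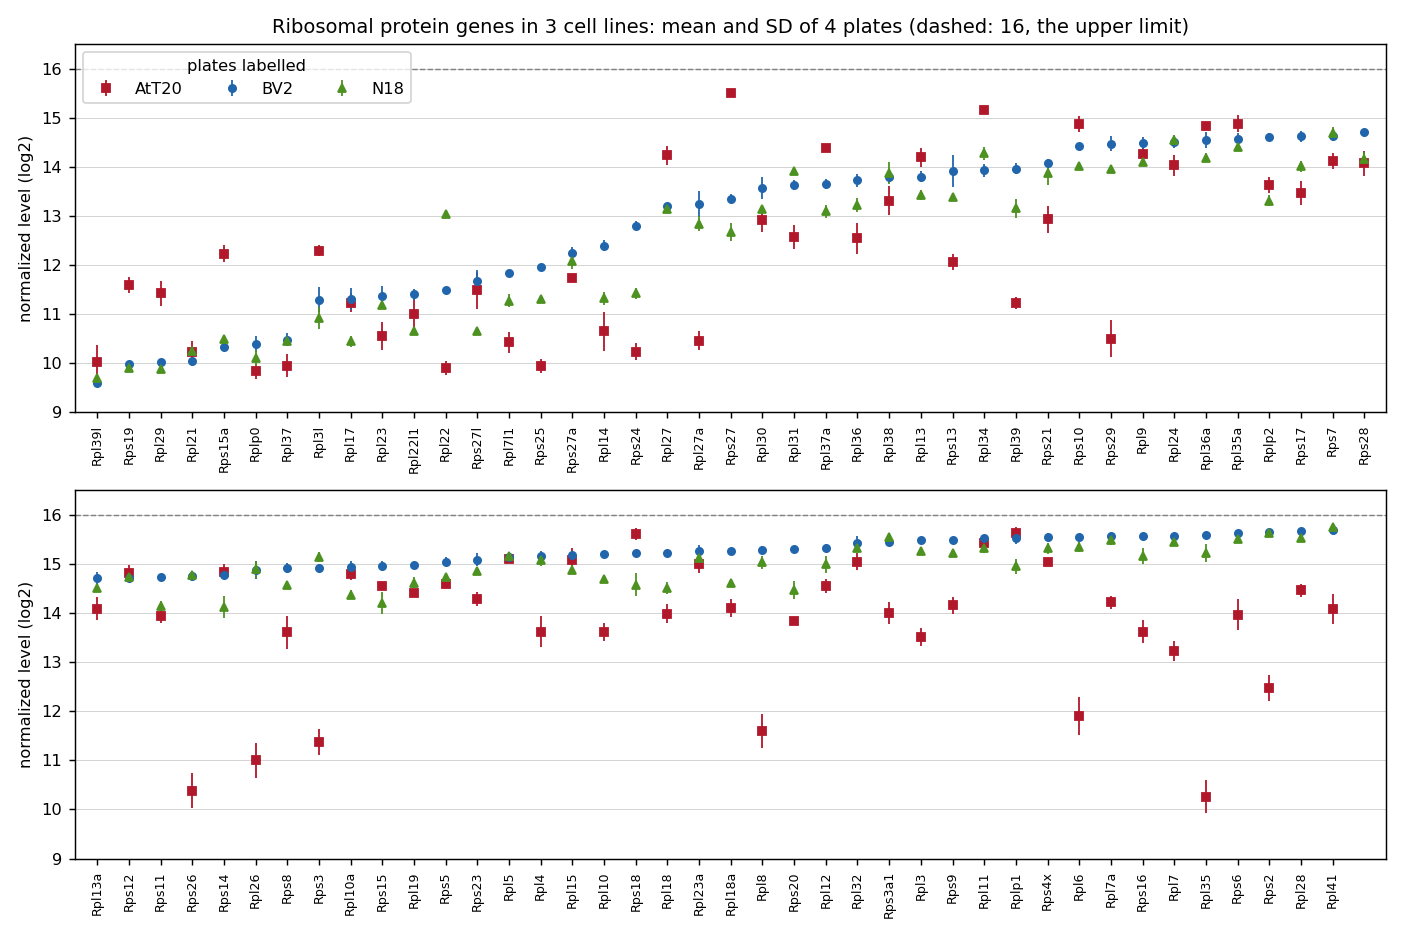
Normalized level on the log2 scale of each of the 81 ribosomal protein genes, as the mean and SD of 4 plates, in plates labelled AtT20 (squares), BV2 (circles) and N18 (triangles), with the genes in order of their BV2 level and a dashed line at the upper limit of 16. BV2 and N18 lie close together for most genes, Rpl22 is the exception in N18's favour at 13.04 against 11.48, and the squares scatter from 9.83 to 15.64.

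The comparison of N18 with BV2 asks whether a neuroblastoma and a microglial line differ in these genes. After quantile normalization of the 12 arrays, 43 members were lower in N18 and 2 were higher at an adjusted p under 0.05 in limma, over all 25128 features. Of all features, 21.9% were lower and 19.0% were higher, 40.9% in either direction. The median difference of the members was −0.29 on the log2 scale, and that of all features was −0.06. The large subunit had 25 lower and 2 higher of 50, with a median of −0.24, and the small subunit had 18 lower and 0 higher of 31, with a median of −0.33. Under this normalization, the 4 plates of 1 line did not overlap those of the other in 52 of the 81 members. The same share over all features is not given here, so the count is not read as particular to these genes. The shift of the members as a whole depended on how the arrays were scaled. Without normalization the median was 0.23, with 13 higher and 6 lower. Relative to the seminal protein genes it was 0.26, with 6 higher and 5 lower, and with each array centred on its own median it was −0.03, with 2 higher and 11 lower. The shares of all features called under these scalings are not given here. Their medians over all features were 0.15, 0.18 and −0.11, so the members then lay slightly above all features and not below them. The direction of the common shift is thus not settled by these data.

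Against their own median, 4 members were higher and 8 lower in N18 (14.8% of the 81, against 26.3% of all features under the same centring). The higher ones were Rpl22, Rpl34, Rpl31 and Rps3, and the lower ones were Rps24, Rps27l, Rpl17, Rpl14, Rplp2, Rpl22l1, Rps20 and Rpl18. Called in 1 direction under each of 5 scalings (the 4 above and quantile normalization) were Rpl22 and Rpl34 as higher and Rpl14, Rpl17, Rpl22l1, Rps24 and Rps27l as lower. The share of all features called in all 5 is not given here. For 48 of the 81 the sign itself changed with the scaling.

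**Figure D2:**
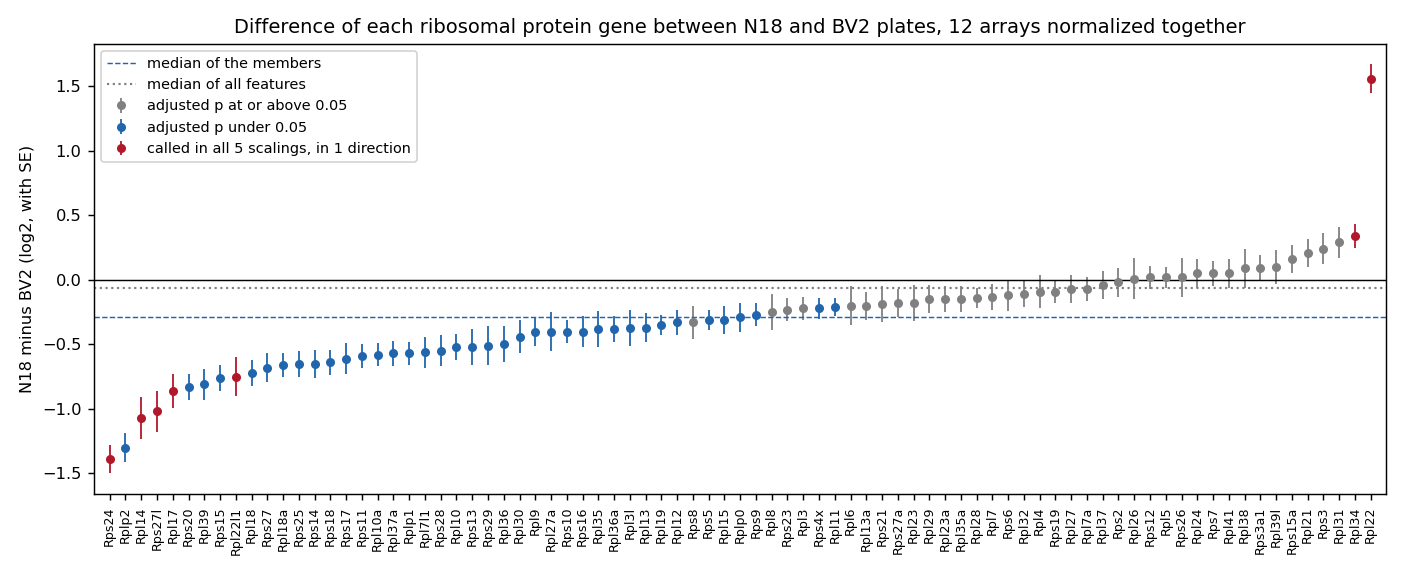
Difference between N18 and BV2 for each of the 81 genes, in order, on the log2 scale with its standard error, after normalizing the 12 arrays together. Red points are the 7 genes called in the same direction under all 5 scalings, the dashed line is the median of the members at −0.29 and the dotted line that of all features at −0.06. Rpl22 stands alone at the upper end at 1.56, and Rps24 is lowest at −1.39.

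Rpl22, a large subunit protein outside the catalytic core that is best known from lymphocyte development, was higher in N18. Its normalized level was 11.55, 11.46, 11.41 and 11.51 on the BV2 plates and 12.99, 13.07, 13.15 and 12.97 on the N18 plates. The plates of the lines were well apart, and the difference was 1.56 ± 0.11 (SE, n = 4 and 4; limma adjusted p = 3.92e-09), or 2.95-fold. It lay between 1.56 and 2.23 over the 5 scalings. Each of its 3 probes was higher in N18, by 1.65, 1.54 and 1.32. Its difference relative to the median of the members was 1.95 ± 0.24.

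Rpl22l1 moved the other way. Its normalized level was 11.38, 11.48, 11.26 and 11.49 on the BV2 plates and 10.64, 10.73, 10.63 and 10.59 on the N18 plates, a difference of −0.75 ± 0.15 (limma adjusted p = 0.000826, n = 4 and 4). Again no plate of 1 line reached into the range of the other, and all 3 probes were lower in N18, by −0.50, −0.98 and −0.55. On the N18 plates 2 of its 3 probes were above the threshold.

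Within each array, the level of Rpl22l1 minus that of Rpl22 needs no scaling between arrays. The size of such a difference in 1 line has no meaning of its own, because the probes differ, and only its change between lines is read. It was −0.21, 0.02, −0.16 and −0.03 on the BV2 plates and −2.70, −2.90, −2.90 and −2.77 on the N18 plates, a change of −2.72 on the log2 scale (two-sided exact permutation test, p = 0.0286, the smallest that 4 against 4 plates allow, and 0.0477 after adjustment over the 5 paralogue pairs compared). Rps27l over Rps27 changed by −0.77 and Rpl7l1 over Rpl7 by −0.43, both with plates apart and with p = 0.0286 and 0.0477 in the same exact test. Rpl3l over Rpl3 changed by −0.23 (exact p = 0.4857) and Rpl39l over Rpl39 by 0.23 (exact p = 0.3429). Neither of those differences was larger than the spread between plates, and Rpl39l was below background in both lines.

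**Figure D3:**
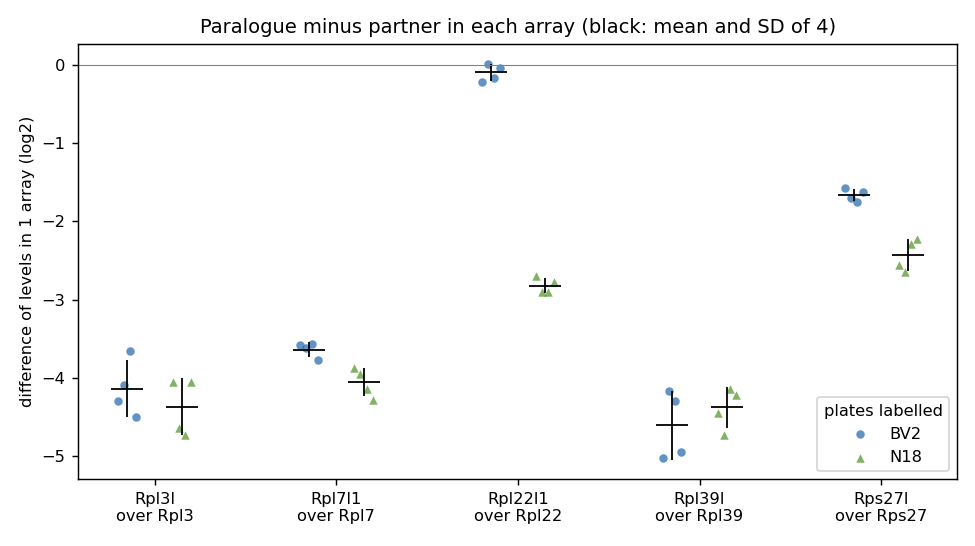
Level of each of 5 paralogues minus that of its partner within 1 array, on the log2 scale, for the 4 BV2 plates (circles) and the 4 N18 plates (triangles), with the mean and SD in black. Rpl22l1 over Rpl22 goes from −0.09 ± 0.11 in BV2 to −2.82 ± 0.10 in N18, the widest gap of the 5 pairs, while the plates of Rpl3l over Rpl3 and of Rpl39l over Rpl39 overlap.

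Among the genes lower in N18, Rps24, a small subunit protein needed for ribosomal RNA processing, differed most. Its normalized level was 12.92, 12.79, 12.70 and 12.81 on the BV2 plates and 11.26, 11.51, 11.47 and 11.43 on the N18 plates. The difference was −1.39 ± 0.11 (limma adjusted p = 4.12e-08, n = 4 and 4), with no overlap, and its 3 probes gave −1.65, −1.16 and −1.19. Rpl14 had 12.46, 12.41, 12.23 and 12.47 on the BV2 plates and 11.20, 11.45, 11.42 and 11.21 on the N18 plates, a difference of −1.07 ± 0.16. Rps27l, the paralogue of Rps27 that p53 induces, had 11.79, 11.51, 11.51 and 11.92 in BV2 and 10.59, 10.77, 10.64 and 10.65 in N18, a difference of −1.02 ± 0.16. With the median of the probes Rps27l was at −0.84 and not called (limma adjusted p = 0.0566). In both genes the plates did not overlap. Rpl17 had 11.38, 11.01, 11.26 and 11.54 in BV2 and 10.44, 10.35, 10.35 and 10.61 in N18, where it was below the background threshold, and the difference was −0.86 ± 0.13, or at least 1.5-fold. Rps20 was lower, at −0.83 ± 0.10 with all 12 arrays and did not pass without normalization (−0.22, limma adjusted p = 0.469). Rpl34 rose from 13.98, 13.80, 13.86 and 14.09 in BV2 to 14.37, 14.39, 14.26 and 14.07 in N18, by 0.34 ± 0.09 (limma adjusted p = 0.00887), and there the plates did overlap.

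The stalk is the flexible arm of the large subunit that recruits elongation factors, built from Rplp0 with copies of Rplp1 and Rplp2. Rplp2 had 14.59, 14.69, 14.62 and 14.52 on the BV2 plates and 13.31, 13.43, 13.34 and 13.15 on the N18 plates, a difference of −1.30 ± 0.11 (limma adjusted p = 3.76e-08, n = 4 and 4) with no overlap. It kept its sign in the 5 scalings and missed the threshold in 1, relative to the seminal protein genes, at −0.53. Rplp1 was lower, at −0.57 ± 0.09, and by −0.03 in that scaling. Rplp0, at background in both lines, differed by −0.29 ± 0.11.

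Of the other members with a paralogue, Rps27 was lower in N18 by −0.68 ± 0.11, Rpl39 by −0.81 ± 0.12 and Rpl10, among the last proteins to join the large subunit, by −0.52 ± 0.10. Each was called only under quantile normalization among the 5 scalings. Rps4x (−0.22 ± 0.08) and Rpl3l (−0.37 ± 0.14) passed narrowly, and their sign changed with the scaling. Rpl3 (−0.22 ± 0.09) and Rpl7 (−0.13 ± 0.10) did not pass, with limma adjusted p of 0.0694 and 0.314.

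Start regions of these genes were searched for a pyrimidine run and 4 other motifs, and those of several genes are shown. Windows of 300 bases, 250 before and 50 after an annotated start in RefSeq (GRCm38.p6), were given for 61 of the 81 members, 73 windows in all. A run of a C with at least 4 more C or T, reaching within 20 bases of the start on the coding strand, was in 75.3% of these windows and in 51.9% of all 32851 windows. The letters CCGGAAG, the core that ETS factors bind, searched on both strands, were in 35.6% of the members' windows and in 8.9% of all. GGGCGG, the SP1 box, was in 58.9% and 35.7%, AAGATGG, from the YY1 motif, in 16.4% and 6.3%, and TATAAA in 9.6% and 13.6%. The 4 motifs given in letters were counted on either strand, the pyrimidine run on the coding strand only, and motifs may overlap. The stretches below run from 60 bases before the start to 15 bases after it, with the pyrimidine runs in capitals. They belong to Rpl22 and Rpl22l1, which changed in opposite directions between N18 and BV2, to Rpl14, which was lower in N18, and to Rpl35 and Rps26, which differed most from the AtT20-labelled plates.
Rpl22, downstream start, chr4:152325666-152325740, plus strand: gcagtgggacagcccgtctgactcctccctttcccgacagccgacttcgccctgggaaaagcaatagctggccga
Rpl22, upstream start, chr4:152324376-152324450, plus strand: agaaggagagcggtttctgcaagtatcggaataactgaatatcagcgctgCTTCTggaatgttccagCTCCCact
Rpl22l1, chr3:28805448-28805522, plus strand: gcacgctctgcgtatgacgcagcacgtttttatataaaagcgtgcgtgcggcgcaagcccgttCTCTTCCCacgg
Rpl14, chr9:120571457-120571531, plus strand: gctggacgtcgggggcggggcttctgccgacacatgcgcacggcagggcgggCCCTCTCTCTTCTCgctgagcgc
Rpl35, chr2:39005117-39005191, minus strand: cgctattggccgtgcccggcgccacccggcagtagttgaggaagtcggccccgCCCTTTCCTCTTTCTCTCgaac
Rps26, chr10:128626492-128626566, minus strand: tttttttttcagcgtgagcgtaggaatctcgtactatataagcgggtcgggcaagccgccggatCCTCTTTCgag
Rpl14 and Rpl35 have the longest runs of those shown, and both span the start. In Rpl22l1 and Rps26 a TATA-like stretch lies before the run. The downstream start of Rpl22 has its pyrimidines farther than 20 bases away. These matches describe the letters only, and no binding or translation was measured.

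Against the AtT20-labelled plates and under quantile normalization, most members were higher in both other lines, and a minority were lower. In BV2 56 members were higher and 14 lower at an adjusted p under 0.05 in limma, where 26.6% of all features were higher and 47.0% lower, 73.6% in all. The median difference of the members was 0.64, and that of all features was −0.23. In N18 48 were higher and 22 lower, where 27.8% of all features were higher and 48.6% lower, 76.4% in all, and the medians were 0.49 and −0.25. Both comparisons use the same 4 plates labelled AtT20. The size of the common shift depended on the scaling: the median for BV2 was 0.23 without normalization and 1.59 relative to the seminal protein genes, and for N18 it was 0.49 and 1.88. Without normalization 35 members were higher and 23 lower in BV2, and 41 and 22 in N18, and the medians of all features were −1.08 and −0.85. Relative to the seminal protein genes, which were brighter on the AtT20-labelled plates, the medians of all features were 0.28 and 0.54. Under 5 scalings, including the centring on the members, 26 genes were called higher in BV2 and 5 lower, and 25 and 5 in N18. The share of all features called in all 5 is not given here, so these counts are not read as particular to the members. The 5 lower genes were Rpl29, Rpl39l, Rps15a, Rps19 and Rps27 in both. Of these, Rpl39l was at background in all 3 lines, and Rpl29 and Rps19 were at background in BV2 and N18 and the smallest of their lower bounds over 3 scalings was below 0 on the log2 scale, so no fold is given for them. The sign itself changed with the scaling in 39 of the 81 members for BV2 and in 46 for N18.

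The widest gaps were in genes at background on the AtT20-labelled plates. Rpl35, a protein beside the exit of the nascent chain tunnel, had a normalized level of 10.10, 10.70, 9.95 and 10.28 there, 15.60, 15.57, 15.63 and 15.61 on the BV2 plates, and 15.23, 15.44, 15.24 and 14.99 on the N18 plates. The difference was 5.35 ± 0.14 for BV2 and 4.97 ± 0.14 for N18 (limma adjusted p = 3.73e-14 and 9.32e-14, n = 4 and 4). Since AtT20 gave only a bound, this is at least 3.96 on the log2 scale in either line, the smallest of the bounds from 3 scalings.

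Rps26, which contacts the message where it leaves the small subunit, had 10.56, 10.18, 10.79 and 9.99 on the AtT20-labelled plates, 14.77, 14.71, 14.66 and 14.88 in BV2 and 14.79, 14.87, 14.68 and 14.73 in N18. It was at least 8.4-fold higher in BV2 and at least 11.3-fold higher in N18. Rpl26 had 10.66, 11.49, 10.81 and 11.06 on the AtT20-labelled plates and 14.72 to 15.05 on the other 8, at least 8.5-fold and 11.3-fold higher. Rps29, a small zinc-binding protein of the small subunit, had 10.14, 10.39, 11.01 and 10.44 there, and was at least 7.1-fold higher in BV2 and 6.4-fold higher in N18. In these 4 genes the AtT20-labelled plates were all far below the lowest plate of the other lines.

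Rpl6, Rpl8 and Rps3 were above the threshold on the AtT20-labelled plates, yet much lower than elsewhere. Rpl6 had 11.85, 12.25, 11.38 and 12.14 there and 15.25 to 15.61 on the other plates, a difference of 3.65 ± 0.15 for BV2 and 3.44 ± 0.15 for N18. Rpl8, which lies near the peptidyl transferase center, differed by 3.68 ± 0.14 and 3.43 ± 0.14. Rps3, at the entry of the message channel, differed by 3.55 ± 0.12 and 3.78 ± 0.12. Rps2 was higher by 3.18 ± 0.11 and 3.16 ± 0.11, and Rpl41, which makes the shortest ribosomal protein, by 1.63 ± 0.11 and 1.68 ± 0.11. Rpl22, at 9.95, 9.87, 10.07 and 9.72 on the AtT20-labelled plates, was 3.14 ± 0.11 higher in N18, at least 3.4-fold, and the bound against BV2 was under 1. Of the other members with a paralogue, Rpl3, Rpl7, Rpl10 and Rpl39 were also called higher in both lines under all 5 scalings, by 1.97 ± 0.09, 2.34 ± 0.10, 1.58 ± 0.10 and 2.75 ± 0.12 in BV2.

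Rps27 was the clearest member in the opposite direction. Its normalized level was 15.49, 15.55, 15.38 and 15.59 on the AtT20-labelled plates, 13.30, 13.24, 13.34 and 13.48 in BV2, and 12.74, 12.88, 12.57 and 12.48 in N18. It was lower, at −2.16 ± 0.11 in BV2 and −2.83 ± 0.11 in N18 (limma adjusted p = 3.1e-11 and 1.42e-12, n = 4 and 4), with no overlap. Rps15a was lower, at −1.90 ± 0.11 and −1.74 ± 0.11, and, with BV2 and N18 at background, the fitted differences were −1.60 ± 0.09 and −1.69 ± 0.09 for Rps19 and −1.40 ± 0.11 and −1.55 ± 0.11 for Rpl29. With the median of the probes, Rps15a differed by −0.25 (limma adjusted p = 0.121) and −0.13 (0.433). Its 3 probes disagreed, at −3.20, −0.61 and 0.86 in BV2 and −2.91, −0.26 and 0.75 in N18. Since Rps15a was below background in BV2, its difference there is given as at least 1.6-fold. Rpl34 was lower, at −1.22 ± 0.09 in BV2 and −0.89 ± 0.09 in N18, and all 6 probes of its 2 targets were lower in both lines. Relative to the seminal protein genes Rpl34 was not called in BV2 (−0.34, limma adjusted p = 0.312), and its sign in N18 turned with the scaling (−1.65 to 0.57). Rpl27 (−1.02 ± 0.11 in BV2), Rpl37a (−1.31 ± 0.10 in N18) and Rpl3l (−1.37 ± 0.14 in N18) were also among the lowest, and their sign changed with the averaging of probes or the scaling.

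The 3 probes of 1 gene often gave different answers on the AtT20-labelled plates. The range over the 3 probes of a target had a median of 2.33 there, against 0.81 in BV2 and 0.92 in N18, and it exceeded 3 on the log2 scale in 31 of the 83 targets against 6 and 5. The same probes are read in each line. In 14 targets a probe within 0.5 of the upper limit of 16 stood beside another probe below the background threshold on the AtT20-labelled plates, and 0 targets did so in BV2 or N18. All 3 probes were above the threshold in 32 targets there, against 73 in BV2 and 71 in N18. None of the 3 was above it in 15 targets there and in 4 in each of the other lines.

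Other bright targets also had a wide range on the AtT20-labelled plates. Other targets were taken where all 3 probes passed the threshold and the level was at least 14 in BV2 and N18, 199 in number. Their median range on the AtT20-labelled plates was 2.85, and in the 49 members chosen alike it was 3.15. In BV2 the medians were 1.28 and 0.83, and in N18 1.17 and 0.93. This choice leaves out targets with a probe below the threshold in BV2 or N18, but not on the AtT20-labelled plates. The narrower ranges in BV2 and N18 are thus in part set by it. Over the 249 probes of the members, the mean deposited intensity correlated between BV2 and N18 with Pearson's r = 0.97, but between AtT20 and BV2 with r = 0.50 and between AtT20 and N18 with r = 0.49. Over all 72000 probes the values were 0.83, 0.48 and 0.45. Plates of 1 line correlated at 0.95 or more over the members' probes in each line. These are descriptions across probes, which share arrays and targets. What set the probes apart was not tested.

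**Figure D4:**
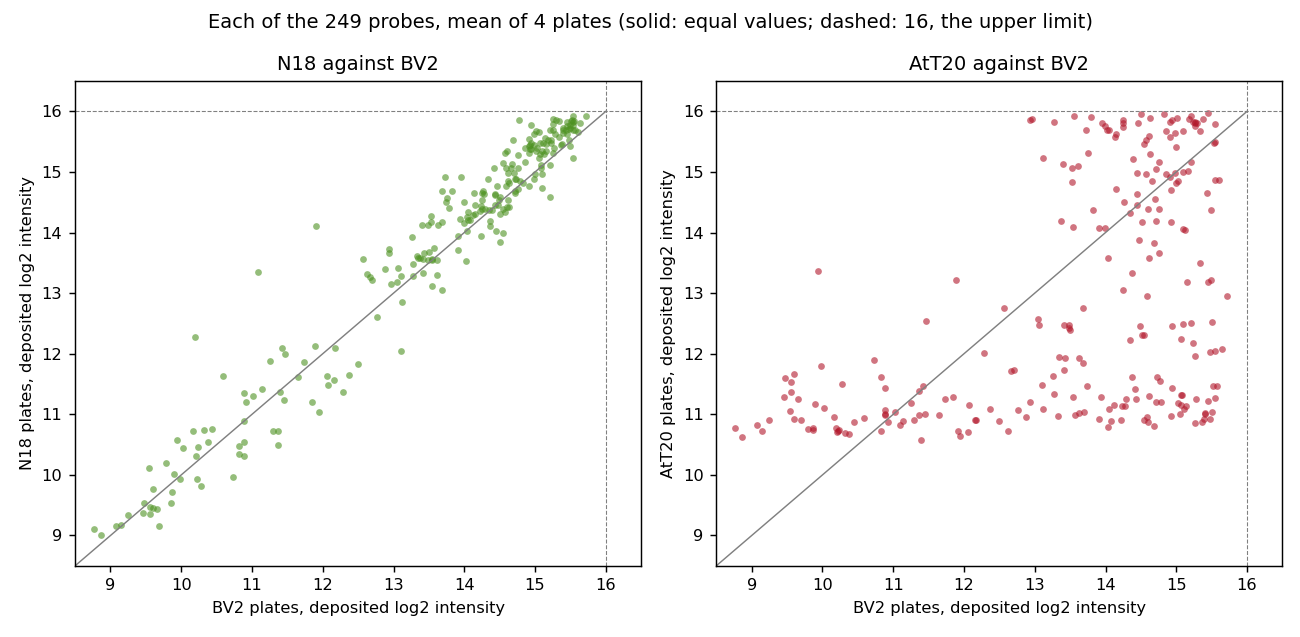
Deposited log2 intensity of each of the 249 probes of the ribosomal protein genes, as the mean of 4 plates, with N18 (left) and the AtT20-labelled plates (right) plotted against BV2, the diagonal marking equal values and dashed lines at the upper limit of 16. The left cloud follows the diagonal (r = 0.97), and on the right many probes that are bright in BV2 lie in a band near 11 while others reach the limit (r = 0.50).

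Rpl15 is an example. Its probe 445 had a deposited intensity of 10.9 ± 0.21 on the AtT20-labelled plates, 14.54 ± 0.35 in BV2 and 15.15 ± 0.19 in N18 (log2, SD, n = 4). Its probe 894 had 15.89 ± 0.11, 14.63 ± 0.29 and 14.42 ± 0.17 in the same order. After normalization the former differed by 4.76 between BV2 and the AtT20-labelled plates and the latter by −0.68, and the gene as a whole differed by 0.10 ± 0.11, which did not pass. Rpl10a had a probe at 11.18 (probe 354) and another at 15.69 (probe 10) on the AtT20-labelled plates, which were at 15.02 and 14.02 in BV2. In Rps23, Rpl23a, Rpl37a and Rpl7a the pattern was alike, with at least 1 probe between 10.93 and 11.25 and another between 15.68 and 15.93 on the AtT20-labelled plates. Rpl35 and Rps27 differed from these, since their 3 probes went together, at 10.86 to 11.00 and at 15.23 to 15.87.

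**Figure D5:**
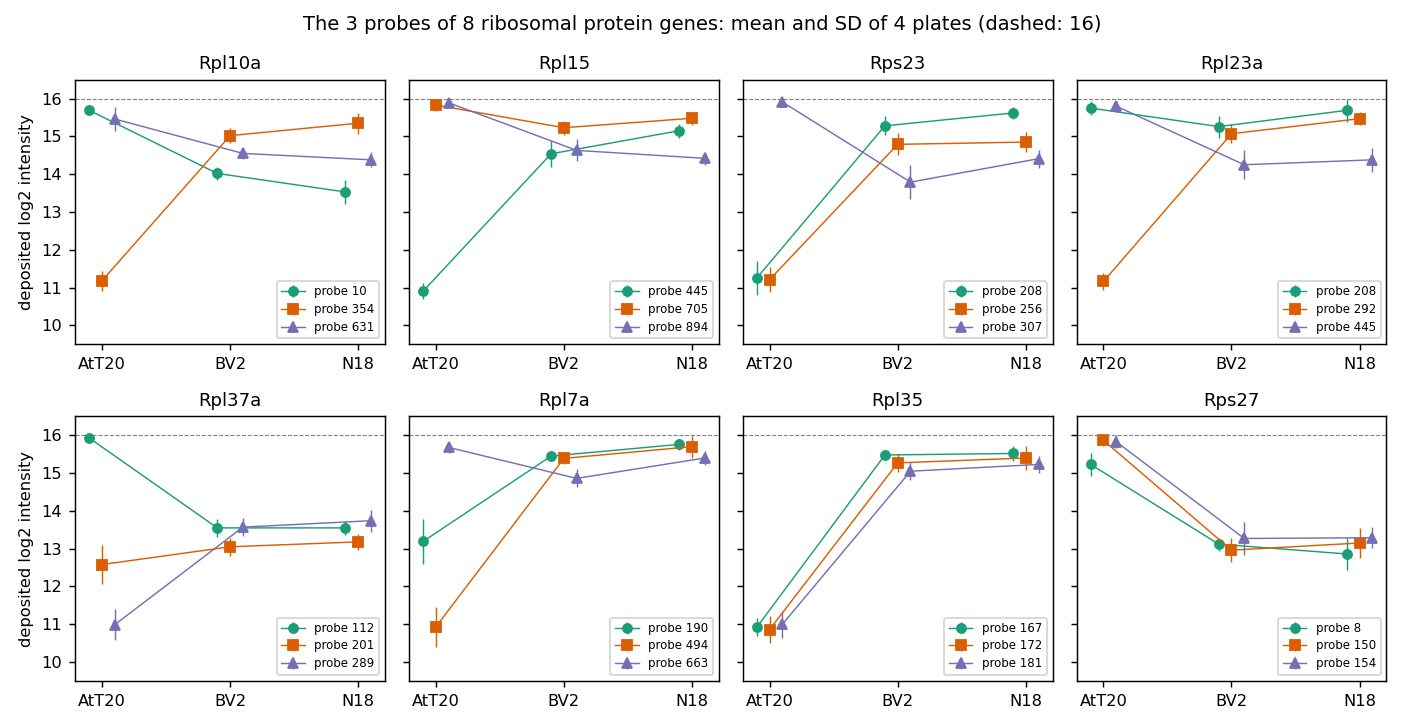
Deposited log2 intensity of the 3 probes of 8 ribosomal protein genes in the 3 lines, as the mean and SD of 4 plates, with a dashed line at the upper limit of 16. In Rpl10a, Rpl15, Rps23, Rpl23a, Rpl37a and Rpl7a the probes part on the AtT20-labelled plates, by 4.52 to 4.99, while the 3 probes of Rpl35 stay low and those of Rps27 high there.

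Directions of the probes were taken after quantile normalization. All probes of 40 members were higher in BV2 than on the AtT20-labelled plates, all were lower in 7, and in 34 of 81 they disagreed. For N18 against the same plates the numbers were 34, 10 and 37. For N18 against BV2 they were 6, 50 and 25, and the median spread of the probes' differences within a gene was 0.42 there against 2.08 and 2.15 in the other pairs. The directions for N18 against BV2 hold for this normalization only. Under it the median of the members was −0.29, and without normalization it was 0.23. Shares over all features are not given here, so these counts are not read as particular to the members.

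Many of these probes were near the top of the scale. The highest possible value is 16, and 100 of the 249 probes, in 48 members, were within 0.5 of it on at least 1 array. Per array this was 31 to 46 probes on the AtT20-labelled plates, 4 to 30 in BV2 and 21 to 54 in N18. At the limit itself were 3 to 7 probes per array on the AtT20-labelled plates, 1 to 5 in N18 and 0 in BV2, and no probe was there on all 4 plates of a line. On all 4 plates, 29 probes were within 0.5 of the limit on the AtT20-labelled plates, 21 in N18 and 3 in BV2. Of the probes near the limit in N18 (63) and BV2 (34), 33 were shared, which is nearly all of the BV2 set, whereas AtT20 (53) shared 16 with N18 and 8 with BV2. Differences of bright members can be compressed there. Leaving these probes out, 7 members in place of 14 were lower in BV2 than on the AtT20-labelled plates, and 12 in place of 22 in N18, while Rpl27 turned to 1.87 in BV2 and Rpl37a to 1.01 in N18. That fit also loses the 15 members whose probes were all near the limit on some array. Rps27 and Rps18, of the 14 and the 22, and Rplp1 and Rpl10a, of the 22, are among them. Part of the fall is thus lost members, and Rps27 could not be checked this way.

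Among the members whose probes came nearest the limit, Rpl11, which binds Mdm2 together with Rpl5 and the 5S ribosomal RNA, was within 15.20 to 15.56 on all 12 plates. Rps18 had 15.42, 15.67, 15.63 and 15.72 on the AtT20-labelled plates, 15.27, 15.25, 15.16 and 15.20 in BV2 and 14.71, 14.84, 14.41 and 14.37 in N18, each line apart from the next under quantile normalization. Over the 5 scalings its sign turned in both comparisons with the AtT20-labelled plates (−1.50 to 0.44 for BV2 and −1.82 to 0.40 for N18), and N18 minus BV2 was called in 1. Rps15 differed between N18 and BV2 by −0.76 ± 0.10, called only under quantile normalization.

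Rpl5, Rps12 and Rpl21 were not called in any pair of lines, and 33 members were called in all 3. The share of all features called in all 3 pairs is not given here. Rpl5 had 14.99 to 15.20 on the AtT20-labelled plates, 15.05 to 15.20 in BV2 and 15.08 to 15.23 in N18, so the 3 ranges overlapped. Rps12 was within 14.60 to 15.06 on all plates, and Rpl21 was at background throughout. This depended on the scaling for all 3. Over the 5 scalings N18 minus BV2 ran from 0.02 to 0.52 in Rpl5, 0.02 to 0.60 in Rps12 and 0.14 to 0.43 in Rpl21, and was called in 1 for each. Against the AtT20-labelled plates Rpl5 and Rps12 were each called in 3 scalings in either line, and Rpl21 in 3 for BV2 and 4 for N18.

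Some ribosomal proteins have symbols that lie outside the rule. Fau, which carries the small subunit protein eS30 behind a ubiquitin-like part, was lower in N18 than in BV2 by −1.58 ± 0.11 and kept its sign in the 5 scalings (−1.58 to −0.82). Rpsa, the laminin receptor protein of the small subunit, was lower, at −0.83 ± 0.15, and Rpl36al, a paralogue of Rpl36a, at −0.87 ± 0.13. Rack1, a scaffold on the small subunit, differed by −0.05 ± 0.15.

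Other genes of translation were taken from lists chosen by function, and their counts are those under quantile normalization, where 21.9% of all features were lower in N18 than in BV2 and 19.0% higher. Of 6 elongation factors, 3 were lower in N18 than in BV2 and 0 were higher, with Eif5a at −0.58 ± 0.10 and Eef1g at −0.41 ± 0.10, and Eef2, which moves the ribosome along the message, at −0.18 ± 0.13 did not pass. The signs of Eef1g (−0.41 to 0.18) and Eef2 (−0.18 to 0.34) turned over the 5 scalings. Of 32 initiation factors, 9 were higher and 9 lower, among them Eif4a2 at 0.93 ± 0.11 and Eif4e, the cap-binding protein, at 0.70 ± 0.09, against Eif2b1 at −1.21 ± 0.14 and Eif3g at −1.02 ± 0.17. Of 38 ribosome assembly factors, 22 were lower and 3 higher, with a median of −0.52. Rrp12 was at −1.25 ± 0.17 and Eif6, which keeps the large subunit from joining too early, at −1.15 ± 0.15, while Rrp1 was at 0.71 ± 0.21. Of 10 genes of ribosomal RNA transcription, 3 were lower and 1 higher, and Polr1a, the largest subunit of RNA polymerase I, was at −1.72 ± 0.14. The proteins of the mitochondrial ribosome, a separate set of 77 genes, had 12 higher and 23 lower, a median of −0.09, with Mrpl11 at −1.48 ± 0.12 and Mrpl58 at 0.86 ± 0.14. The median of all features was −0.06.

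Against the AtT20-labelled plates, the same lists moved as follows in BV2. Higher were 5 of 6 elongation factors, 17 of 32 initiation factors, 26 of 38 assembly factors, 6 of 10 genes of ribosomal RNA transcription and 39 of 77 mitochondrial ribosomal proteins, and lower were 1, 11, 5, 2 and 16, where 26.6% of all features were higher and 47.0% lower. In N18 3, 18, 19, 5 and 41 were higher and 0, 10, 10, 4 and 24 lower, where 27.8% of all features were higher and 48.6% lower. Eef2 was higher by 3.21 ± 0.13 in BV2 and 3.03 ± 0.13 in N18, while Eif3i was lower, at −1.11 ± 0.10 and −1.95 ± 0.10.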

How the data were processed

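The deposited values are log2 Cy3 intensities, 1 for each of 72000 probes on each of 12 arrays, which the authors made by taking log2 of the scanned intensities. No background subtraction or normalization between arrays is described. Probes carry a transcript identifier, and 69.4% of 25631 targets were matched to a symbol in a RefSeq table, from which only names were taken. The members and all gene lists were chosen with earlier results of these data known, and the named genes follow a rule of size, role and probe behavior.

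The level of a target is the log2 of the mean linear intensity of its probes, and a gene takes the mean of its targets. Lines were compared after quantile normalization of the 12 arrays by limma's moderated test (version 3.58.1, with a mean trend, under R 4.3.3, 4 plates per line), with Benjamini-Hochberg adjustment over 25128 features. A difference was called at an adjusted p under 0.05. The plates of a line were grown and extracted separately, per the study's methods, and p-values measure the spread between such plates of 1 line. Where a gene was below background in 1 line, the lower bound is the smallest over 3 scales. The probes near the upper limit are those within 0.5 of 16. The limma step was tested on simulated levels. Correlations of same-numbered plates of different lines ran from −0.105 to 0.319, within the −0.49 to 0.36 of differently numbered ones. Replicate numbers were therefore not used as pairs in the main fit, though these correlations cannot exclude pairing. The largest share of equal values in a pair of arrays was 0.05%. Alternatives were other scalings, probe averages, background correction (normexp, offset 50), probe, gene and array filters, a replicate block and leaving out each plate. Centring on the members, and normalizing only the 8 arrays of N18 and BV2, were added after seeing the data. Precision is limited by the number of arrays and by signal over background. Python 3.11.15 made the remaining tables, with pandas 2.3.3, numpy 2.4.6, scipy 1.17.1 and matplotlib 3.10.9. The result for 1 gene is not reported here.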

Additional observations from a re-analysis of the deposited data

Results flagged for a closer look

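In 7 of the 144 groups of 4 plates tested among the named genes, 1 plate lay far from the other 3, and chance alone gives about 7.2 (1 in 20). On the normalized log2 scale, Rpl17 was at 10.96 on plate 1 labelled AtT20 and at 11.30 to 11.35 on the others, Rps24 at 10.49 on the same plate against 10.13 to 10.17, and Rps12 at 15.06 on plate 4 labelled AtT20 against 14.71 to 14.76. On BV2 plate 2, Rpl37a was at 13.81 against 13.59 to 13.62, Rpl7 at 15.48 against 15.59 to 15.60, and Rplp1 at 15.70 against 15.43 to 15.48. Rps23 was at 14.89 on BV2 plate 3 against 15.13 to 15.18. BV2 plate 2 also had the fewest member probes near the upper limit, 4, where the other BV2 plates had 10 to 30. The part of these plates in the results was not tested beyond leaving each out.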

How the results depend on the processing

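The counts of members above background were 58 to 66 on the plates labelled AtT20, 74 to 75 in BV2 and 71 to 75 in N18 over all alternatives. For BV2 against the plates labelled AtT20, members higher and lower were 35 and 23 without normalization (median 0.23), 59 and 7 with array medians (1.12), 66 and 5 relative to the seminal protein genes (1.59), and 26 and 41 when centred on the members. The lower count was 9 with the mean of log2 probes (median 1.10), 8 with the median of probes (0.94) and 7 without probes near the limit (1.36), and normexp gave a median of 0.82. With a difference of at least 1 the counts were 35 and 6. For N18 against those plates, lower counts were 9 with array medians (median 1.12), 5 relative to the seminal protein genes (1.88), 13 with the mean of log2 probes (0.74) and 12 without probes near the limit (0.78), and the counts were 25 and 40 when centred on the members and 26 and 8 with a difference of at least 1. For N18 against BV2, higher and lower counts were 13 and 6 without normalization (median 0.23), 2 and 11 with array medians (−0.03), 6 and 5 relative to the seminal protein genes (0.26), 4 and 8 when centred on the members, 1 and 27 with the median of probes, and 1 and 4 with a difference of at least 1. Higher was 1 without probes near the limit (median −0.40), a setting that drops the 15 members left with no probe. It was 6 with only the 8 arrays of the pair, with 50 lower, and 6 when those 8 were normalized alone, with 49 lower. The shares of all features called are not given beside these counts, which are thus not read as particular to the members. Medians of all features also moved with the scaling. For BV2 against the plates labelled AtT20 they were −1.08 without normalization and −0.19 with array medians. Relative to the seminal protein genes the value was 0.28, and centred on the members it was −1.66.

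Several single genes turned sign. Rpl27 in BV2 against AtT20 was at 0.64 with the mean of log2 probes, 1.07 with the median of probes and 1.87 without probes near the limit. Rpl37a in N18 against AtT20 was at 0.37 relative to the seminal protein genes, 0.07 and 0.36 with the same 2 averages and 1.01 without probes near the limit, and Rpl3l at 0.21 relative to the seminal protein genes. For N18 against BV2, values without normalization and relative to the seminal protein genes were 0.07 and 0.10 for Rpl10, 0.04 and 0.07 for Rpl3l, and 0.25 and 0.28 for Rps4x (0.07 with the median of probes), and Rps27 was at 0.02 in the latter. Their causes were not tested.

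Leaving out 1 plate at a time, BV2 against AtT20 gave 54 to 58 higher, 13 to 14 lower and a median of 0.64 to 0.75. N18 against AtT20 gave 45 to 49, 21 to 23 and 0.43 to 0.52, and N18 against BV2 gave 2 to 3, 36 to 45 and −0.31 to −0.26. Members above background were 63 to 66, 74 to 75 and 73 to 75. The calls of Rpl3, Rpl3l, Rplp0 and Rps4x between N18 and BV2 turned on single plates. With the replicate number as a block, the counts were 56 and 14, 47 and 22, and 2 and 40, and Rpl3l, Rplp0 and Rps4x missed the threshold between N18 and BV2, at −0.37, −0.29 and −0.22. Same-numbered plates do not share a known batch. Signal within 0.5 of the upper limit and the 4 plates per line limit what bright members can show.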
